A study of Mus musculus with 4 samples.

Results

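The comparison described here is between 2 RNA sequencing libraries of mouse mammospheres, 1 from animals given the carcinogen 7,12-dimethylbenz[a]anthracene (DMBA) and 1 from animals given vehicle alone (control). Members were chosen by label: the library labelled DMBA and the library labelled control, 2 of the 4 libraries in the series. Of 22609 genes in the deposited count tables, 13625 had at least 20 counts in either library and were kept. Of these, 13097 reached 20 counts in both libraries, 300 in the DMBA library only and 228 in the control library only.

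All animals were Balb/C mice. Control animals were gavaged with sesame oil daily for 3 weeks from 21 days of age. DMBA animals had the same sesame oil and then a single gavage of DMBA at 30 mg/kg at 2 months. The 2 other groups had bisphenol A (BPA) at 25 μg/kg/day in place of the oil alone, without DMBA (BPA) or with it (BPA+DMBA). All groups were kept on a low-phytoestrogen diet, and glands were taken at 4 months. Basal mammary cells were isolated by fluorescence-activated sorting and grown without attachment for 7 days, and the spheres of 5 animals were pooled into the single library of each group. The RNA was therefore taken from cultured spheres, 2 months after the carcinogen. With 1 pooled library a group, no difference between DMBA and control has a replicate check.

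Basal cells form the outer layer of the mammary ducts. They carry the keratins Krt5 and Krt14 and the transcription factor Trp63, and they mature into contractile myoepithelial cells, whereas luminal cells carry Krt8 and Krt18 and include the progenitors of milk-secreting alveoli. DMBA is a polycyclic hydrocarbon that binds the aryl hydrocarbon receptor and is oxidised by cytochrome P450 enzymes of the Cyp1 family to a form that attacks DNA. It is widely used to produce mammary tumours in rodents, some of which have squamous (skin-like) features.

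Sequences of 4 gene starts are shown here because 3 belong to cornified envelope genes that were much higher in the DMBA library and the 4th to Cyp1a1, the classical target of the aryl hydrocarbon receptor. Each runs from 250 bases before to 50 bases after the annotated start, 5′ to 3′ on the gene's own strand, from RefSeq (GRCm38.p6). In the first 3, capitals mark TGANTCA, the motif bound by AP-1 factors. In Cyp1a1, capitals mark GCGTG, the core of the element bound by the aryl hydrocarbon receptor. Both strands were searched, the motifs do not overlap in these windows, and the motifs were chosen after the values of these genes had been seen.
Krtdap (chr7:30787655-30787954, plus strand): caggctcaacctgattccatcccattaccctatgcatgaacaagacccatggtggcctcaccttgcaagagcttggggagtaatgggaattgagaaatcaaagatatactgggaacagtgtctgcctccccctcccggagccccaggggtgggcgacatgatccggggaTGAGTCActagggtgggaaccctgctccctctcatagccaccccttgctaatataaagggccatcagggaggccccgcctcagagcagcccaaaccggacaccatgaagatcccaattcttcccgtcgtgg
Sprr1a (chr3:92485832-92486131, minus strand): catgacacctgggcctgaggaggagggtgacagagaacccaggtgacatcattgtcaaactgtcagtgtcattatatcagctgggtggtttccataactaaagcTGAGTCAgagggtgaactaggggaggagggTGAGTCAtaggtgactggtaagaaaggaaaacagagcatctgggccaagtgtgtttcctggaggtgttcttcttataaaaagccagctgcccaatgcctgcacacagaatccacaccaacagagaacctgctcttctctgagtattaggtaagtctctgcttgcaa
Sprr1b (chr3:92438730-92439029, minus strand): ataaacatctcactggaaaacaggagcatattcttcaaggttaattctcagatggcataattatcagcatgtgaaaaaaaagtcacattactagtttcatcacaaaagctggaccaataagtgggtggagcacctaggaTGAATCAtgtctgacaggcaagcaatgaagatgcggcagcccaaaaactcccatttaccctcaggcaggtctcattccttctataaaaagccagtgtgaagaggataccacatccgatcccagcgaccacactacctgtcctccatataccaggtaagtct
Cyp1a1 (chr9:57697363-57697662, plus strand): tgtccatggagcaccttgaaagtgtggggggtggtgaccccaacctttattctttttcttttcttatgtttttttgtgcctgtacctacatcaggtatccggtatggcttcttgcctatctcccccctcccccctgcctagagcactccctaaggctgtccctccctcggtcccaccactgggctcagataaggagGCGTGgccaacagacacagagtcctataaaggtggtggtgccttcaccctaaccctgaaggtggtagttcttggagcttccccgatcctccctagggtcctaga

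The AP-1 motif began 81 bases before the start in Krtdap, at 146 and 116 bases before it in Sprr1a and at 111 bases before it in Sprr1b. The receptor core began 54 bases before the start of Cyp1a1. Of 27025 genes with a window in the table, 8.97% held TGANTCA and 35.2% held GCGTG. Matched by symbol, 9606 of the 13625 kept genes had a window, and 6.71% of these held TGANTCA. Among genes at least 2-fold higher in the DMBA library, 59 of 371 with a window held it (15.9%), and among those at least 2-fold lower 11 of 201 (5.47%). GCGTG was found in 55.7% of kept genes, 39.9% of the higher genes and 42.3% of the lower genes. Of 10 kept genes of the receptor and DMBA metabolism list with a window 6 held it (60%). Cyp1b1 and Tiparp, which were not called, are among these. Of 14 kept cornified envelope genes with a window 7 held TGANTCA, among them Ivl, which was not called. Cnfn and Klk7, also much higher in the DMBA library, are among those without the motif. The 3 windows shown thus do not stand for the whole list. These shares are a description: letters that match a motif are not a measured site, and no binding was measured.

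Counts assigned to genes totalled 30627055 in control and 26682738 in DMBA, so a count of 0 still allows 0.101 and 0.108 CPM (counts scaled to library size, with the TMM factors of edgeR). Levels below are CPM, ratios are DMBA over control with an exact 95% interval that covers counting error only, and a gene is called higher or lower when the ratio is at least 2-fold and its interval excludes equality. Across all kept genes the median log2 ratio was -0.01, and 83.8% of genes lay within 1.5-fold. Scaling by total counts in place of TMM moved the median by 0.108. As an independent reading, BPA+DMBA against BPA is a pair that shares no library with this one. The 4 libraries were also fitted together with additive BPA and DMBA terms (edgeR's quasi-likelihood test with Benjamini-Hochberg adjustment), in which the 1 residual degree of freedom, the interaction, stands in for replicates.

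In the DMBA library, the basal keratins Krt5, Krt14, Krt15 and Krt17 and 15 of 20 kept genes of the cornified envelope were at least 2-fold above control, as were 7 of 18 smooth muscle genes and 4 of 13 desmosome genes. Among the genes at least 2-fold lower were Fcgbp, Pigr and Muc1 of mucous surfaces, the growth factor binder Igfbp5, the adrenergic receptor Adra1a, the channel Kcnma1 and the sterol exporters Abca1 and Abcg1. In all, 577 genes were called higher (4.23% of genes) and 314 lower (2.3%), 64.8% of the calls being higher. The shares of 4.23% and 2.3% are the background for the counts of each list. With total counts in place of TMM the split was 706 higher and 229 lower, or 75.5% higher. Higher genes were the more extreme: 141 reached 4-fold against 30 of the lower genes, and 31 reached 8-fold against 7. Summed over genes, the called higher genes took 5325 CPM in control and 16243 in DMBA, and the called lower genes 35351 and 13663.

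Most calls were genes of low abundance. With genes split by mean level into 5 bins of equal size, the lowest bin, up to 5.23 CPM, held 354 higher and 152 lower calls, against 21 and 36 in the top bin. Of the genes that reached 20 counts in both libraries, 3.09% were called higher and 1.79% lower. The 172 higher calls among genes that reached it in DMBA only and the 79 lower calls among those that reached it in control only were bound to lie on that side. Just inside the count filter, 290 genes whose larger count was 20 to 25 gave 39 higher and 26 lower calls. Just outside it, 363 genes whose larger count was 15 to 19 would have given 37 and 32.

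**Figure D1:**
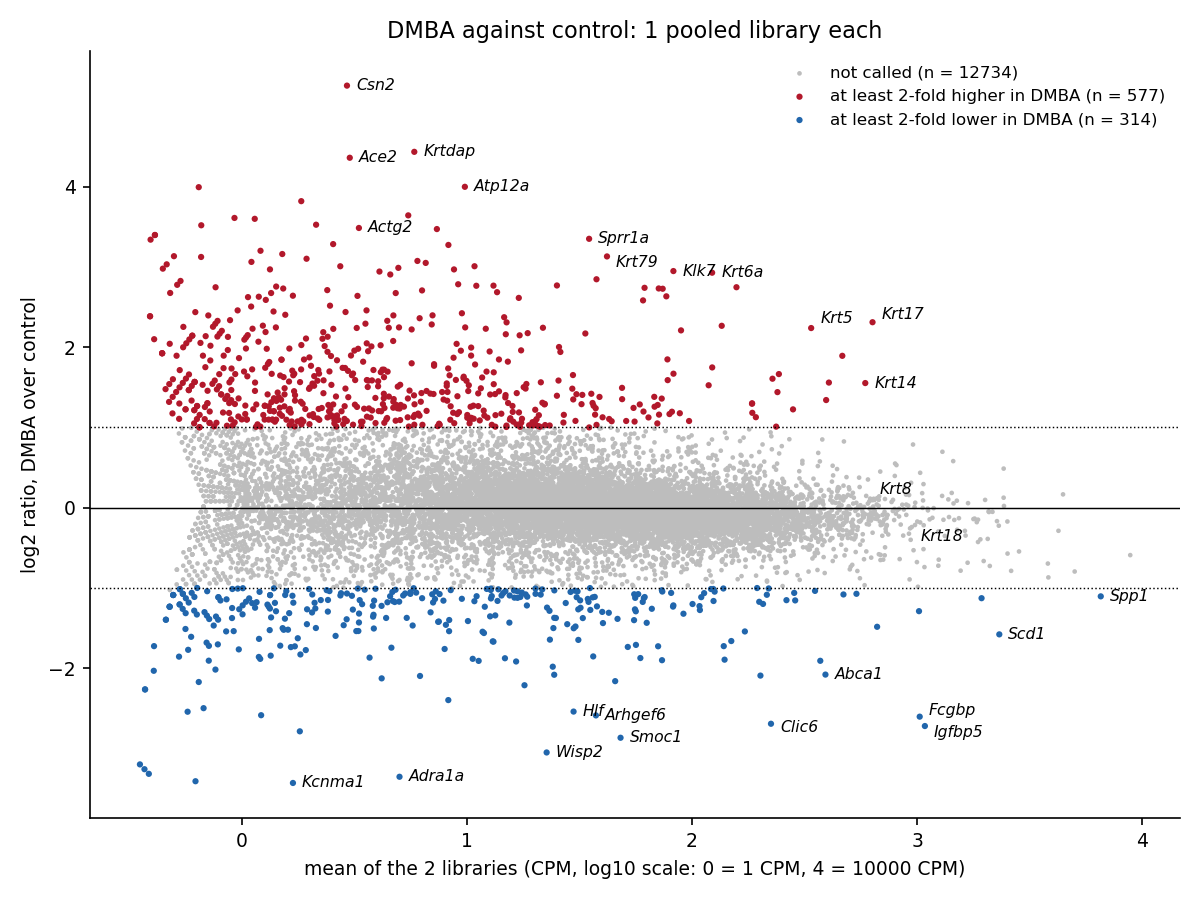
Each point is 1 of 13625 genes. The horizontal axis is the mean level of the 2 libraries in CPM on a log10 scale and the vertical axis is the log2 ratio of DMBA over control, with dotted lines at 2-fold. The 577 genes called higher (red) are mostly left of 10 CPM, while Krt17, Krt14 and Krt5 stand out among abundant genes above and Igfbp5, Fcgbp and Scd1 below. Points are single pooled libraries and carry no error between animals.

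The libraries are labelled as sorted basal cells, and their keratins were checked first, per kilobase of the longest annotated transcript so that genes can be compared. In control, Krt18 stood at 713 CPM per kilobase and Krt8 at 304, against 176 for Krt14 and 53.8 for Krt5. In DMBA these levels were 603 and 328 for the luminal pair and 517 and 254 for the basal pair. Krt5 and Krt14 together came to 0.226 of Krt8 and Krt18 together in control and 0.828 in DMBA, beside 0.216 in BPA and 0.724 in BPA+DMBA. The basal keratins were thus present in every library. In each of them Krt8 and Krt18 together were the more abundant, by less in the libraries with DMBA. The 13 luminal keratin and adhesion genes summed to 7441 CPM in control and 7074 in DMBA, and no luminal keratin was called. In bulk RNA, a change in the number of cells of a type and a change in RNA per cell cannot be told apart.

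Of 16 basal keratin and identity genes, all kept, 10 were called higher and 0 lower, with a median log2 ratio of 1.24, beside 4.23% and a median of -0.01 over all genes. Krt5 was at 118 CPM in control and 558 in DMBA, beside 149 in BPA and 468 in BPA+DMBA. DMBA over control was 4.72 (interval 4.55 to 4.90). Krt14, its partner in the keratin filament, was at 299, 878, 315 and 811 CPM in the same order, a ratio of 2.94 (2.86 to 3.01). For both keratins the 2 libraries without DMBA were lower than the 2 with it. How many of all genes have that order was not counted. Krt17, a keratin of basal and wounded epithelium, made the largest gain in level of any gene, from 212 CPM to 1055. Krt15, a keratin of basal and stem-like epithelial cells, went from 2.32 CPM in control to 19.3 in DMBA, the highest ratio of the list at 8.31 (6.46 to 10.8). It was at 3.55 in BPA and 10.5 in BPA+DMBA.

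Regulators of the basal state moved with the keratins, though by less. Trp63, the master regulator of basal and squamous epithelium, was at 41.1 CPM in control and 99.9 in DMBA, a ratio of 2.43 (2.27 to 2.60). In the pair without shared libraries it went from 48.1 to 75.4, short of 2-fold. Cdh3, the cadherin of basal cells, was 3.19-fold higher, Igfbp3, a secreted binder of insulin-like growth factors, 2.71-fold and Bcl11b, a zinc finger factor of mammary basal cells, 2.30-fold. Members that were not called include Snai2 (log2 0.79), Procr (0.95), Sox9 (-0.10) and Lgr6 (-0.60), so the list did not move as a block. In the additive fit 13 of the 16 passed as higher and 0 as lower. The anchorage of basal cells to the basement membrane was a contrast: of 11 genes of hemidesmosomes and their laminin 1 was called, Col17a1 at 264 CPM against 121, and the median was 0.01.

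Markers of other cells moved beside this group. Of 9 kept luminal progenitor markers 4 were called lower and 1 higher. With 1 member below the filter included, the summed level of the list went from 14126 CPM in control to 9170 in DMBA. Ltf, which was not called, made up most of that sum and of its loss, at 10623 and 7051 CPM. With total counts alone, 2 were called lower. The 16 fibroblast markers summed to 11655 CPM in control and 7260 in DMBA, but to 8607 in BPA and 11752 in BPA+DMBA. Of the 16, 1 was called lower and 0 higher in DMBA against control, and 5 had ratios above 0. Their median log2 ratio was -0.36 there and 0.51 in BPA+DMBA against BPA. None of these lists was at 0: Col1a1, a chain of type I collagen, stood at 3311 CPM in control. Whether these markers have a part in the ratios of basal genes was not tested.

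The contractile apparatus of myoepithelial cells was split. Of 18 kept smooth muscle genes 7 were called higher and 0 lower, all 18 had ratios above 0, and the median was 0.51. Myh11, the smooth muscle myosin heavy chain, was at 3.30 CPM in control and 23.0 in DMBA, beside 2.87 in BPA and 16.1 in BPA+DMBA. Its ratio was 6.96 (5.62 to 8.70). Actg2, an actin of visceral smooth muscle, rested on 14 counts in control and 172 in DMBA and was 13.1-fold higher (7.58 to 24.4). Cnn1, calponin, and Myl9, a myosin light chain, were 4.23-fold and 3.77-fold higher. The most used myoepithelial marker moved much less: Acta2, smooth muscle alpha-actin, was at 86.2 CPM in control and 127 in DMBA, a ratio of 1.48. It was at 70.3 CPM in BPA and 134 in BPA+DMBA, a log2 ratio of 0.93, just short of a call. Tagln, transgelin, was at 35.2 and 35.4, and Oxtr, the oxytocin receptor that triggers milk ejection, at 65.9 and 90.3. The list thus moved unevenly, with Myh11 and Cnn1 among the calls and Acta2 and Tagln not.

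**Figure D2:**
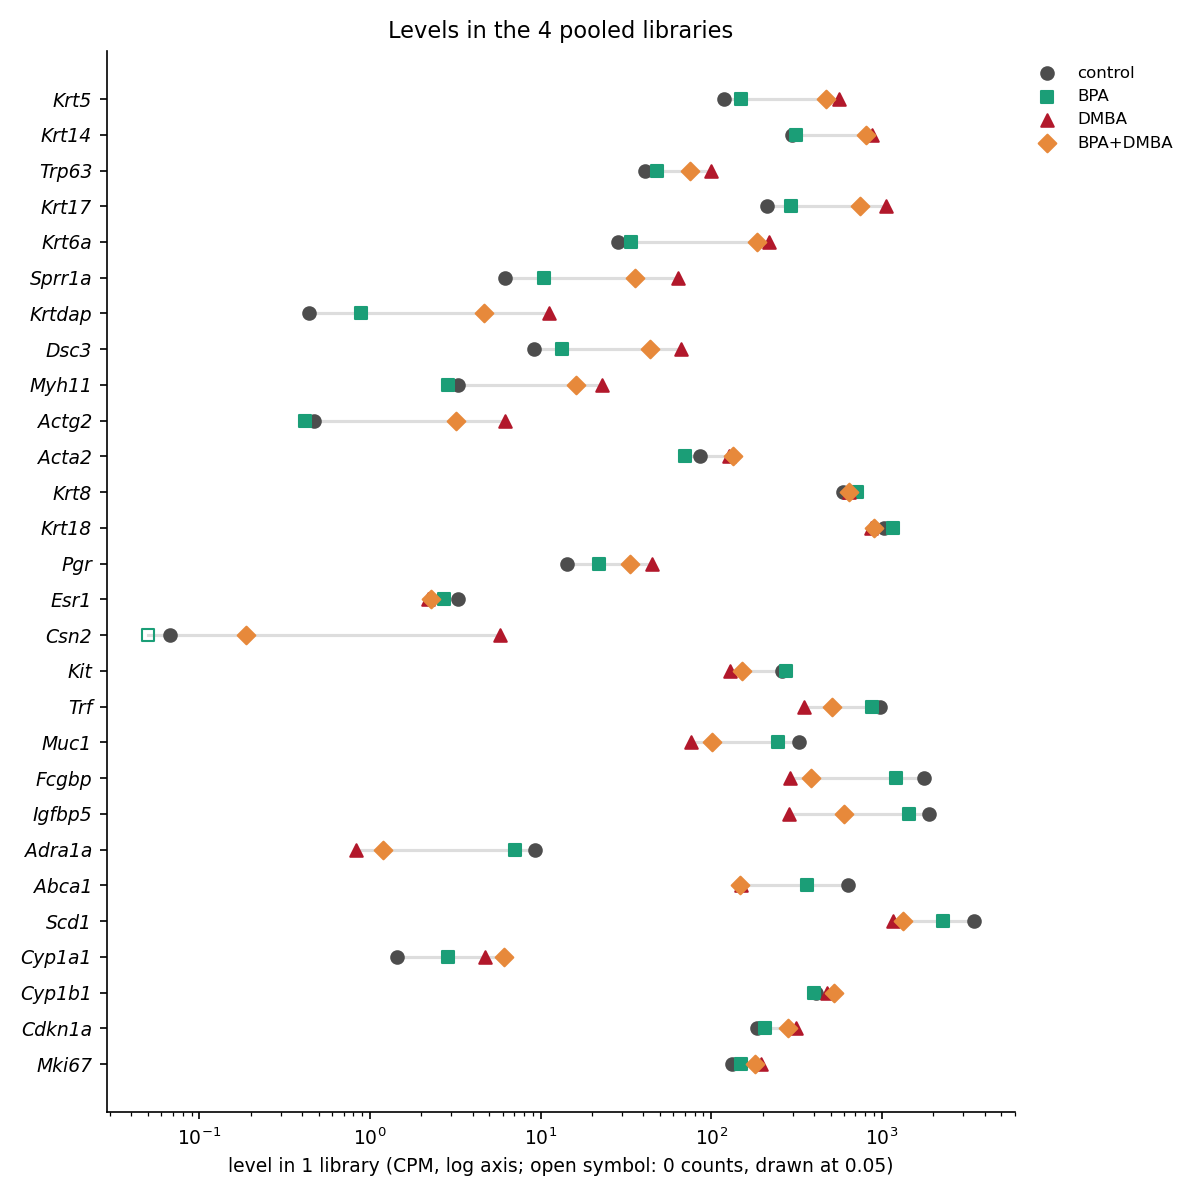
Levels of 28 genes in the 4 pooled libraries, in CPM on a log axis, with 1 point a library and a grey line from the lowest to the highest. Krt5, Krt14, Krt6a and Myh11 are high in both libraries with DMBA and low in both without it, Krt8 and Krt18 lie close together in all 4, and Csn2 is high in the DMBA library alone. An open symbol marks a count of 0.

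Genes of late squamous differentiation gave the highest median of the lists, 1.82. The cornified envelope is the cross-linked protein shell of dying surface cells in stratified epithelium. Of 30 listed genes 20 were kept, 15 were called higher and 0 lower, and 5 of the 20 passed the count filter through the DMBA library only. In the additive fit 16 of the 20 passed as higher and 0 as lower. Krtdap, a secreted peptide of differentiating keratinocytes, had 13 counts in control and 314 in DMBA and was 25.7-fold higher (14.8 to 48.8). It was at 0.888 CPM in BPA and 4.66 in BPA+DMBA, so the order of the libraries was kept at lower size. Sprr1a, a small proline-rich envelope protein, was at 6.17 CPM in control and 63.7 in DMBA, or 10.3-fold higher (8.87 to 12.1). Its neighbour Sprr1b was 3.52-fold higher (2.79 to 4.48), and reads of the 2 may be split or lost where their sequences match.

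The proteases and protease inhibitors that govern shedding of the squamous surface were among the higher genes. Klk7, a chymotrypsin-like kallikrein that cleaves desmosomes in skin, was at 18.9 CPM in control and 147 in DMBA, a ratio of 7.75 (7.10 to 8.48). Spink5, the inhibitor of that protease, was at 18.6 and 124, and Cst6, an inhibitor of cathepsins in skin, at 40.8 and 275. Enzyme and inhibitors were therefore higher in the same library. Klk6, a trypsin-like kallikrein, added one of the largest gains in level, from 197 CPM to 733. Cnfn, cornifelin of the envelope, was 10.5-fold higher on 10 and 99 counts. Ivl, involucrin, an early envelope protein, was at 12.0 and 21.3 CPM and was not called. Krt10, the keratin of the suprabasal epidermis, was at 2.63 and 3.51 CPM, with an interval that included equality.

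Stress keratins were high in the same library. Krt6a, which epithelia make on wounding, was at 28.5 CPM in control and 217 in DMBA, beside 33.9 in BPA and 185 in BPA+DMBA. Its ratio was 7.64 (7.10 to 8.22). Krt16, its usual partner, went from 26 counts to 204, 8.35-fold higher, and Krt6b, a near-identical copy of Krt6a whose counts are uncertain for that reason, was 3.40-fold higher. Of 8 kept stress keratins and alarmins 5 were called higher and 1 lower. The lower one was S100a8, a calcium-binding alarmin of neutrophils and keratinocytes, at 5.56 CPM in control and 2.12 in DMBA. Outside the list, Krt79, a keratin of hair follicle and gland ducts, was 8.84-fold higher, and Endou, a nuclease with a place in the squamous surface, 10.2-fold higher on 44 and 421 counts.

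Of 13 kept desmosome genes 4 were called higher (30.8%, beside 4.23% over all genes) and 0 lower, with a median of 0.79. Dsc3, the desmocollin of the basal layer, went from 9.13 CPM to 66.2, a ratio of 7.25 (6.38 to 8.27). Dsg3, the desmoglein of the same layer, went from 113 to 343, and Dsg1b, a desmoglein of upper layers, from 5 counts to 63. The cytoplasmic plaque moved less: Dsp, desmoplakin, was at 703 CPM and 1214, a ratio of 1.73, although in level this was among the 8 largest gains. With at least 100 counts required, or 20 in both libraries, 2 of the 4 calls are left. Of 16 squamous transcription factors, 3 were called higher and 1 lower. The higher ones were Hopx, Ovol1 and Grhl3, each of which has a known place in epidermal differentiation.

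**Figure D3:**
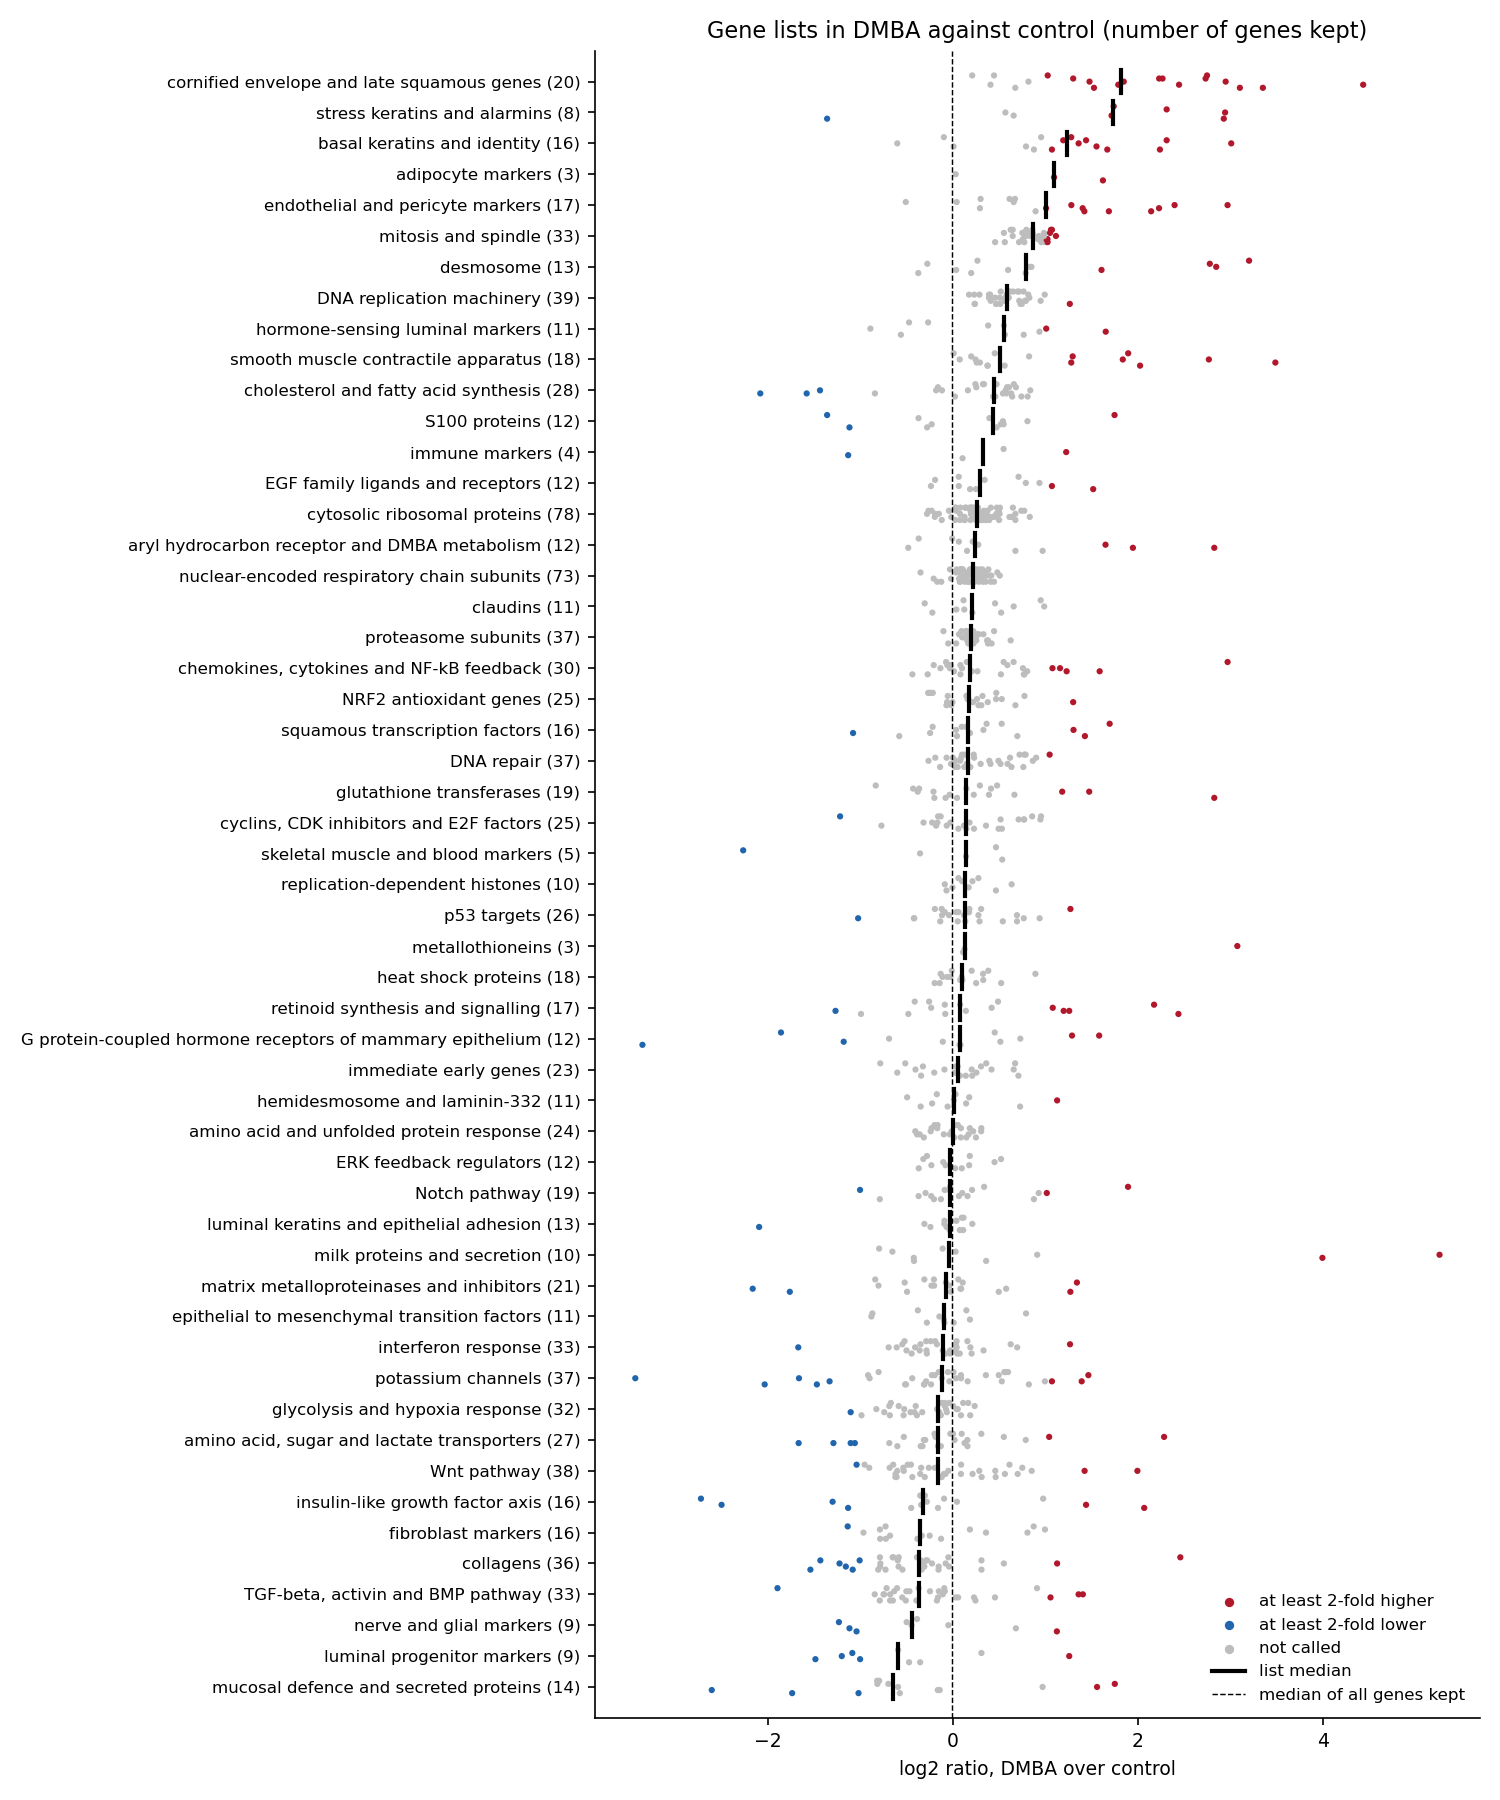
Each row is a gene list and each point 1 kept gene, placed by its log2 ratio of DMBA over control. Black bars are list medians, and the dashed line is the median of all genes, -0.01. Cornified envelope genes have the highest median, 1.82, and mucosal defence genes the lowest, -0.64.

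Luminal genes gave no single direction. Of 11 hormone-sensing markers 2 were called higher and 0 lower. Pgr, the progesterone receptor, was at 14.3 CPM in control and 45.0 in DMBA, beside 21.9 in BPA and 33.5 in BPA+DMBA, a ratio of 3.16 (2.83 to 3.53) for DMBA over control. Esr1, the estrogen receptor that induces it in mammary epithelium, stood at 3.27 and 2.19 CPM in control and DMBA, on 97 and 61 counts. Prlr, the prolactin receptor, was at 149.6 and 80.6 CPM, a ratio of 0.539 that fell short of the 2-fold call. Among progenitor markers, Kit, a receptor tyrosine kinase, was at 259.7 CPM in control and 129.7 in DMBA, a ratio of 0.499 (0.480 to 0.519) that lies at the threshold. Trf, transferrin, went from 979 to 349.6 CPM and Cd14, a receptor for bacterial lipopolysaccharide, from 292 to 138. Aldh1a3, a retinaldehyde dehydrogenase used to mark progenitors, went the other way, from 40.2 to 96.3 CPM, and Elf5, the factor that drives alveolar fate, was at 147 and 106.

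The highest ratio in the comparison belonged to a milk gene. Csn2, beta-casein, had 2 counts in control and 162 in DMBA, 86.2-fold higher (23.5 to 718), with 0 in BPA and 3 in BPA+DMBA. Csn1s2a, another casein, had 0 counts in control and 36 in DMBA, at least 12.8-fold higher against a floor of 3 counts, with 2 in BPA and 0 in BPA+DMBA. Both were high in the DMBA library alone, which is 1 pool of 5 animals. Caseins of this cluster are close relatives, so their counts are uncertain. The other milk genes did not follow: Csn3, kappa-casein, was at 840 CPM in control and 534 in DMBA, and of 10 kept milk genes 2 were called higher and 0 lower, with a median of -0.04.

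Proteins that line and defend wet epithelia were lower in sum. Of 14 mucosal defence genes 3 were called lower and 2 higher, and the median was -0.64. The summed level of all 18 listed genes, 4 of them below the filter, was 27820 CPM in control and 17345 in DMBA. It was 25849 in BPA and 17364 in BPA+DMBA. Fcgbp, a large mucus-associated protein, was at 1763 CPM in control and 289.8 in DMBA, beside 1206 in BPA and 384 in BPA+DMBA, and DMBA over control was 0.164 (0.160 to 0.168). Pigr, which carries IgA into milk and mucus, went from 79.9 to 23.9 CPM. Muc1, the transmembrane mucin of the luminal surface, had 9690 counts in control and 2132 in DMBA, a ratio of 0.234, and was the only called member of 13 luminal keratin and adhesion genes. Ltf, lactoferrin, had the second largest loss in level of all genes, at a ratio of 0.664 that was not called. It is also in the luminal progenitor list. Cp and Lcn2, not called either, went from 6354 to 3660 CPM and from 4708 to 2905 CPM. Ltf, Cp and Lcn2 made up most of the fall in the summed level. Slpi, a secreted protease inhibitor, was higher, at 606 CPM against 205.

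Spp1, osteopontin, a secreted matrix glycoprotein, had the largest loss of all in level, from 8926 CPM in control to 4149 in DMBA. It was at 6188 in BPA and 5739 in BPA+DMBA, so the pair on the BPA background differed by a log2 ratio of only -0.11. Fn1, fibronectin, was at 4945 and 2707 CPM in control and DMBA, and at 4124 and 4125 in BPA and BPA+DMBA. For both genes the libraries lay farther apart in DMBA against control than on the BPA background, a difference that was not tested. Of 36 collagens 6 were called lower (16.7%) and 2 higher (5.56%), against 2.3% and 4.23% over all genes. Of the 36, 2 passed the count filter in control only and so could be called only lower. In BPA+DMBA against BPA 0 collagens were called lower and 1 higher, Col10a1, which was called lower in DMBA against control. In the additive fit 1 passed as lower and 2 as higher. The median of the collagens was -0.37, against a median of 0.42 in BPA+DMBA over BPA. Mmp13, collagenase 3, was at 74.6 CPM in control and between 16.6 and 28.1 in the 3 other libraries, so the control library alone was high.

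Igfbp5 was called lower in both pairs. This binder of insulin-like growth factors rises in the involuting gland. It was at 1880.1 CPM in control and 285 in DMBA, beside 1437 in BPA and 600.2 in BPA+DMBA. DMBA over control was 0.152 (0.148 to 0.155), from 55807 and 7946 counts. Of 16 genes of that growth factor axis 4 were called lower (25%) and 2 higher (12.5%), against 2.3% and 4.23% over all genes. Apart from Igfbp5, the genes Igfbp4, Igf2 and H19 were lower, and Igfbp3 and Igfbp2 higher. Igf2 rested on 36 and 4 counts. In BPA+DMBA against BPA, Igfbp4 and Igf2 were not called, at log2 ratios of -0.64 and -0.73, and H19 was at 0.24. Members of the axis thus went both ways, with a median of -0.32.

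Some receptors and channels were among the lowest ratios. Adra1a, the alpha-1A adrenergic receptor, had 274 counts in control and 23 in DMBA, a ratio of 0.0893 (0.0557 to 0.137), and 135 and 19 counts in BPA and BPA+DMBA. Kcnma1, the large-conductance calcium-activated potassium channel, had 94 and 6 counts, a ratio of 0.0679, and 41 and 3 in the other pair. Both genes were low in each library with DMBA. Hepacam, a cell adhesion protein, had a lower ratio still, 0.0296, but on 36 counts in control and 1 in DMBA (interval 0.000729 to 0.176). Adora1, an adenosine receptor, was at 14.0 CPM in control and 2.58 in DMBA. Of 37 kept potassium channels 5 were called lower and 3 higher, with 7 of the 37 passing the filter in control only and 3 in DMBA only. Of 12 G protein-coupled hormone receptors 3 were called lower and 2 higher, with 1 of the 12 passing in control only. Over all genes 2.3% were called lower and 4.23% higher, beside 13.5% and 8.11% of these channels and 25% and 16.7% of these receptors.

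The other leading lower genes are of mixed function. Wisp2, a matricellular protein of the CCN family, was at 40.5 CPM in control and 4.80 in DMBA, beside 25.4 in BPA and 10.3 in BPA+DMBA. Smoc1, a calcium-binding matrix protein, went from 84.8 to 11.5 CPM, and Clic6, a chloride channel family member, from 389 to 60.0. Hlf, a circadian transcription factor, went from 50.9 to 8.68 CPM and Arhgef6, a guanine nucleotide exchange factor, from 64.3 to 10.6. Each was also called lower in BPA+DMBA against BPA. Mybph, Spata3 and Myh3 had 0 counts in DMBA and 23, 22 and 21 in control, which makes them at least 7.20-fold, 6.89-fold and 6.58-fold lower against a floor of 3 counts. Spata3 also had 0 counts in both BPA libraries, so its 22 control counts came from 1 library of the 4.

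Of 28 genes of cholesterol and fatty acid synthesis and export, 3 were called lower and 0 higher. Abca1, which loads cholesterol onto apolipoproteins and is a target of the oxysterol-sensing receptors LXR, was at 633 CPM in control and 149.7 in DMBA, beside 362 in BPA and 147 in BPA+DMBA, a ratio of 0.236 (0.228 to 0.244) for DMBA over control. Abcg1, its partner in export, went from 92.0 to 34.0 CPM, and Scd1, the desaturase of fatty acid synthesis, from 3472 to 1162. Srebf1, another gene under LXR, was at 378 and 211 CPM and was not called. Of the 28 genes 21 had ratios above 0, and the median was 0.45. Pmvk (log2 0.84), Fdps (0.74), Idi1 (0.66) and Sqle (0.57), enzymes of the sterol chain, were not called, while 13 genes of the list passed the additive fit as higher and 4 as lower.

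The receptor that binds DMBA was itself not called. Ahr was at 64.0 CPM in control and 71.3 in DMBA, beside 75.7 in BPA and 61.5 in BPA+DMBA. Cyp1a1 was at 1.45, 4.73, 2.87 and 6.10 CPM in the same order, and DMBA over control was 3.27 (2.30 to 4.72) on 43 and 132 counts. Aldh3a1, an aldehyde dehydrogenase under the receptor, was 3.90-fold higher (3.26 to 4.70) and Gsta1, a glutathione transferase with the near copy Gsta2, had 2 and 28 counts. Cyp1b1, the family member that activates DMBA in mammary tissue, was nearly level, at 411 CPM in control and 477 in DMBA. Tiparp, a receptor target that answers quickly in many tissues, was at 56.4 and 56.1 CPM. Of 12 kept genes of this list 3 were called higher and 0 lower, with a median of 0.25. Other detoxification lists had medians of 0.17 (25 NRF2 genes), 0.15 (19 glutathione transferases) and 0.13 (3 metallothioneins). Of the NRF2 genes 1 was called (4%), Gpx2 at a log2 ratio of 1.30, and of the transferases 3 (15.8%), beside 4.23% over all genes. In the additive fit 6 of the NRF2 genes passed as higher and 0 as lower.

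Calls among genes of the damage response were near the shares over all genes, 4.23% higher and 2.3% lower. Of 26 p53 targets 1 was called higher (3.85%), Gdf15, a stress-induced cytokine, and 1 lower (3.85%), Fas, a death receptor. Cdkn1a, the p53-induced inhibitor of cyclin-dependent kinases, was at 185 CPM in control and 316 in DMBA, beside 207 in BPA and 282 in BPA+DMBA, a ratio of 1.70 (1.65 to 1.76). Mdm2, the p53 ubiquitin ligase, was at 174 and 189 CPM in control and DMBA. Of 37 DNA repair genes 1 was called higher (2.70%), Rad54l, a recombination factor, and 32 lay above 0. In the additive fit 5 of the 26 p53 targets and 5 of the 37 repair genes passed as higher and 0 as lower. Over all genes fitted, 6.67% passed as higher and 7.72% as lower.

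Proliferation genes moved by a small and even amount. All 33 mitosis and spindle genes had ratios above 0, between 0.46 and 1.11 on the log2 scale, with a median of 0.87. Since they crowd the 2-fold line, the number called depends on scaling: 7 with TMM, 16 with total counts, 13 with upper-quartile factors, and 0 when the interval bound itself had to reach 2-fold. In the additive fit 31 passed as higher and 0 as lower. Plk1, a mitotic kinase, went from 15.4 to 31.3 CPM, and Mki67, the gene of the Ki-67 antigen, from 133 to 196. The 39 DNA replication genes were all above 0 too, with a median of 0.58 and 1 call, Gins1. Rb1, the brake on entry into S phase, was the only call among 25 cyclins, inhibitors and E2F factors, at 116 CPM in control and 49.7 in DMBA.

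Lists of secreted signals and their receptors held between 5.26% (Wnt) and 29.4% (retinoid) of genes called higher, beside 4.23% over all genes. Wnt10a, a Wnt ligand, went from 4.14 to 16.8 CPM, and 2 of 38 Wnt pathway genes were called higher and 1 lower. Of 17 retinoid genes 5 were called higher, led by Aldh1a1, a retinaldehyde dehydrogenase, at 4.95 CPM against 0.842, and 1 lower, Stra6, the retinol carrier receptor, at 32.7 against 78.9. Il18, an interleukin of epithelial surfaces, had 7 and 68 counts and led 5 higher calls among 30 chemokine and cytokine genes (16.7%). Ltbp2, named as a member of the latent TGF-beta binding protein family, went from 220.1 to 59.1 CPM. Bmp7, a ligand of the TGF-beta family, went from 17.8 to 47.4. Epgn, an EGF family ligand, was 2.90-fold higher (2.35 to 3.59) and Nrg1 the other higher call among 12 genes of that family (16.7%). No immediate early gene (of 23), unfolded protein response gene (of 24), heat shock gene (of 18) or claudin (of 11) was called, and at 4.23% higher and 2.3% lower over all genes, lists of this size would hold few calls.

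Endothelial markers were higher than in control. Of 17 kept endothelial and pericyte markers 9 were called higher (52.9%, beside 4.23% over all genes) and 0 lower, with a median of 1.01. Pecam1, an adhesion protein of endothelium and platelets, was at 6.20 CPM in control and 20.2 in DMBA, beside 8.09 in BPA and 20.6 in BPA+DMBA. Rgs5, a marker of pericytes, went from 57 counts to 436 and Emcn, endomucin, from 2.19 to 11.9 CPM. The summed level of all 18 listed markers moved little, from 420 CPM to 458. Cspg4, the member with the most counts, was lower, at 189 CPM against 269. Blood cell markers were scarce: of 16 immune markers 12 were below the filter, Cd3g and Tyrobp were at 0 in both libraries, and Ptprc, carried by all white cells, had 3 and 2 counts. All 16 together summed to 34.3 CPM in control and 40.1 in DMBA.

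The pair that shares no library gave smaller ratios of mostly the same sign. BPA+DMBA against BPA called 376 of the same 13625 genes higher (2.76%) and 126 lower (0.925%). Of the 577 genes called higher here 222 were called higher there, 38.5% of this list and 59.0% of that one, and 541 lay on the same side of 0. Of the 314 lower genes 76 were called lower there, 24.2% of this list and 60.3% of that one, and 262 lay on the same side. Called on the opposite side there were 1 of the higher genes, Nefl, and 2 of the lower genes, Col10a1 and I830012O16Rik. The median log2 ratio of the higher genes was 1.46 here and 0.90 there, and of the lower genes -1.25 and -0.71. Since the genes were chosen for their size in the first pair, a smaller size in the second was built into the choice. In level, the called lower genes took 27114 CPM in BPA and 17899 in BPA+DMBA, and the called higher genes 6327 and 12410. In the additive fit 909 of 13638 genes passed as higher (6.67%) and 1053 as lower (7.72%), and they include 368 of the higher and 167 of the lower calls. That fit contains the 2 libraries of this comparison and is not independent of it.

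**Figure D4:**
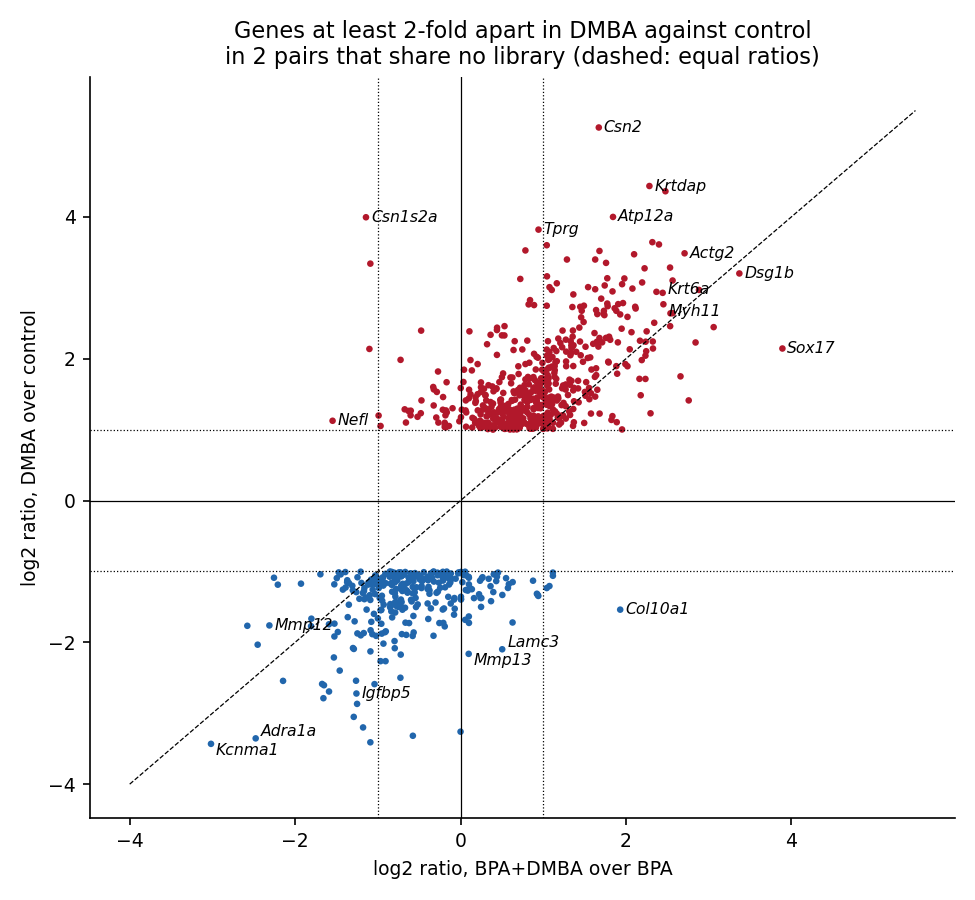
The 891 called genes by log2 ratio in 2 pairs of libraries, BPA+DMBA over BPA on the horizontal axis and DMBA over control on the vertical axis, with dotted lines at 2-fold and a dashed line at equal ratios. Most points keep their side of 0 across the pairs and lie above or below the dashed line, that is, farther from 0 in DMBA over control. Nefl and Col10a1 are labelled as genes called on opposite sides in the 2 pairs.

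Some genes were called in this pair and had other values in the second. By the largest gap between the pairs, the higher genes were Csn2, Tprg, Cpa4, Nefl and Atp12a. Tprg, which is regulated by p63, had 5 counts in control and 98 in DMBA, against 13 and 22 in BPA and BPA+DMBA. Cpa4, a secreted carboxypeptidase, had 8 and 112 counts, against 14 and 21. Atp12a, a proton and potassium pump, was at 1.08 and 18.5 CPM, against 1.31 and 4.91. Among lower genes the largest gaps were those of Lamc3, C1qtnf3, Mmp13, Atp2b3 and Csf1r. Lamc3, a laminin chain, was at 10.1 CPM in control, 2.29 in DMBA, 3.97 in BPA and 5.66 in BPA+DMBA. In each of these 5 lower genes, control was the highest of the 4 libraries or close to it, and Csn2, Tprg, Cpa4 and Atp12a were highest in the DMBA library.

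Ratios also ran with transcript length. With genes split into 5 bins of equal size, the bin of shortest transcripts had a median log2 ratio of 0.15, with 173 higher and 49 lower calls. The bin of longest transcripts had a median of -0.16, with 73 and 87. The other pair had medians of 0.15 and -0.19 in the same bins. Ribosomal protein genes, which are short, had a median of 0.27 over 78 genes, and 0.12 once the trend with length was removed. Respiratory chain genes had a median of 0.22, and 0.06 once it was removed. Basal, cornified envelope and smooth muscle genes kept their numbers of higher calls within 1.5 times when it was removed. RNA integrity was not given in the sources used here, and its part in the ratios was not tested. Of 191 named genes, 47 had a ratio outside its counting interval once the trend was removed.

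**Figure D5:**
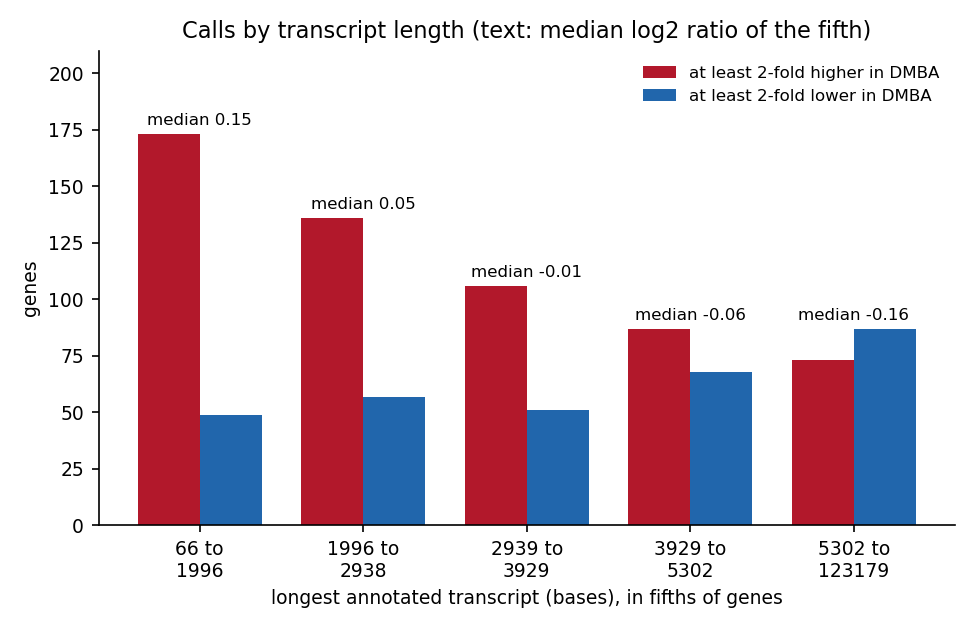
Numbers of genes called higher (red) and lower (blue) in DMBA against control in 5 bins of 13498 genes with an annotated length, from shortest to longest transcript, with the median log2 ratio of each bin. Higher calls go from 173 to 73 and lower calls from 49 to 87.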

How the data were processed

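Whole-number read counts per gene symbol, deposited by the authors for 4 libraries of mouse mammospheres, were used as deposited. The submitters' processing notes list build mm9 and the tools HTSeq, CASAVA 1.8.2 and DESeq. Neither an aligner nor a strand setting is given in the sources used here, so reads of a gene and an antisense partner cannot be told apart. The 5 summary rows without a gene were dropped. Reads outside genes were 13.5% in control and 11.9% in DMBA, and reads with more than 1 alignment 22.9% and 25.6%.

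Genes with at least 20 counts in DMBA or control were kept. Log2 ratios of CPM used TMM factors from edgeR 4.0.16 (R 4.3.3; 0.969 for control, 1.05 for DMBA) and a prior count of 2, while printed folds are ratios of CPM without it. Intervals are 95% Clopper-Pearson intervals of the count ratio. The additive model used edgeR's quasi-likelihood test on 13638 genes, Benjamini-Hochberg adjustment and a threshold of 0.05. Both procedures were run on simulated counts with no or little variation beyond counting error. Those runs cannot show how either performs with variation between animals, sorts and cultures. A single pair of libraries was given no p-value. Alternatives were other scalings, filters, prior counts, folds, thinning, removal of the length trend, and DESeq2 1.42.0.

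The rule for named genes took the 15 higher and 15 lower genes by the interval bound nearest equality, the 8 largest gains and losses in CPM, up to 4 called members a direction of each of 53 lists, and the 5 genes a direction with the largest gap to BPA+DMBA against BPA. It also took a set of standard markers. Genes with predicted or clone names and small RNAs did not count for the rule by size. Some genes of the lists were named outside this rule after their values were seen. The comparison and the lists were chosen with earlier results of these data known. Transcript lengths are the longest in GENCODE M21 (GRCm38), found for 99.1% of kept genes by symbol; its coordinates were not used. Gene start windows are from RefSeq. Values of a few list members are not reported here.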

Additional observations from a re-analysis of the deposited data

Results flagged for a closer look

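Col10a1, a collagen of growth plate cartilage, and Nefl, a neurofilament protein, were, with 1 clone-named gene, called on opposite sides in the 2 pairs of libraries that differ by DMBA. Col10a1 had a log2 ratio of -1.54 in DMBA against control, on 12 and 42 counts, and of 1.93 in BPA+DMBA against BPA, on 26 and 7 counts. Nefl had a log2 ratio of 1.12 in DMBA against control, on 93 and 44 counts, and of -1.55 in BPA+DMBA against BPA, on 15 and 56 counts. I830012O16Rik, known by a clone name only, had a log2 ratio of -1.21 in DMBA against control, on 8 and 23 counts, and of 1.07 in BPA+DMBA against BPA, on 19 and 10 counts. With 1 library a group, the difference between the pairs was not tested for any of them.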

How the results depend on the processing

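No paired analysis was possible because each group held 1 library, and for the same reason no library could be left out. Requiring at least 100 counts in either library left 327 genes called higher and 200 lower, of which 146 of the higher were also called higher in BPA+DMBA against BPA. A 1.5-fold rule gave 1209 higher and 852 lower, and requiring the interval bound itself to reach 2-fold gave 313 and 134. In the additive fit, DESeq2 passed 341 genes as higher and 334 as lower, and edgeR with total counts alone passed 431 as lower. Counts of called genes stayed within 1.5 times under the other settings run: DESeq2 size factors, total counts, upper-quartile factors, no filter, 20 counts in both libraries, prior counts of 0.5 and 10, thinning, and removal of the length trend. Of 191 named genes, no called one changed sign under any of these settings, but ratios moved out of their counting interval for 57 with total counts alone, 47 with the length trend removed, 26 with upper-quartile factors and 20 with a prior count of 10. With total counts alone the medians of the Notch, milk protein, luminal keratin, ERK feedback, matrix metalloproteinase and epithelial to mesenchymal transition lists changed sign. Genes with few counts are limited by depth, and counting intervals leave out variation between animals, sorts and cultures.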

Other observations

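Several gene groups outside the main results held single genes with large ratios among members that stayed near control. Mt3, a metallothionein best known from brain, had 36 counts in control and 303 in DMBA, 8.96-fold higher (95% counting interval 6.33 to 13.0). The 2 other kept metallothioneins had log2 ratios close to the list median of 0.13. Of 19 glutathione transferases 3 were called higher (15.8%, beside 4.23% over all genes) and 0 lower. Among the 3 was Gsta4, which clears products of lipid peroxidation, at 257 CPM against 113. The other 2, Gsta1 and Gstm6, reached 20 counts in the DMBA library only and so could be called only higher. In BPA+DMBA against BPA 0 of the transferases were called higher. Of 27 amino acid, sugar and lactate transporters 2 were called higher (7.41%) and 4 lower (14.8%). Slc6a14, a broad amino acid transporter, went from 2.32 to 11.7 CPM, and Slc1a2, a glutamate transporter, from 19.9 to 6.20. Of 12 kept S100 genes S100a14 was called higher (8.33%), at 189.6 CPM against 56.4, and S100a8 and S100b lower (16.7%). Of 33 interferon response genes 1 was called in each direction (3.03%), Ifi27l2a higher and Ifi44 lower. That is near the shares over all genes, 4.23% higher and 2.3% lower. Of 32 glycolysis and hypoxia genes 1 was called, Slc2a3, a glucose transporter, at a log2 ratio of -1.10. It was at 0.34 in BPA+DMBA against BPA.

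Markers of fat were sparse, those of nerve less so. Of 9 kept nerve and glial markers 3 were called lower (33.3%) and 1 higher (11.1%), beside 2.3% and 4.23% over all genes. Of the 9, 1 passed the count filter in control only and so could be called only lower. The higher call was Nefl, which was called lower in BPA+DMBA against BPA, at a log2 ratio of -1.55. In that pair 3 of the markers were called lower and 0 higher. In the additive fit 1 passed as lower and 0 as higher. Sox10, which mammary epithelium also carries, had a log2 ratio of -0.05 on 10182 counts in control and 9253 in DMBA. Of 9 adipocyte markers 3 were kept. Fabp4, a fatty acid carrier shared by fat cells and capillary endothelium, went from 5.69 to 17.7 CPM, but Adipoq, which defines fat cells, had 1 count in each of these 2 libraries.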
